A study of Mus musculus with 42 samples.

Results

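Messenger RNA was compared between Trmt61a-deficient and wild-type CD4 T cells 48 h after stimulation, in 4 RNA-seq libraries. The genes described are all 1195 genes of the table the authors deposited for that time, out of 2828 genes listed in any of the 4 RNA-seq tables of the series. The 4 libraries belong to a series of 42 samples that also covers resting cells, 3 h and 6 h of stimulation, and other assays. The wild-type group (WT) held 2 libraries from C57BL/6 mice of 8 weeks. The conditional knockout group (cKO) held 2 libraries from age-matched C57BL/6 mice lacking Trmt61a. The labels of these RNA-seq samples do not name the Cre driver, while the description of the series gives Cd4Cre with floxed Trmt61a for its ribosome-tagged mice. Cd4Cre acts in developing T cells of the thymus. In both groups naive CD4 T cells were purified from spleen, kept in X-VIVO medium and stimulated on plates coated with anti-CD3 (5 µg/ml) together with anti-CD28 (2 µg/ml). Replicates are named only by number, with no word on whether they are separate animals, so the p-values measure the spread between these libraries, which may be technical.

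Trmt61a is the catalytic subunit of the enzyme that methylates adenosine 58 of tRNAs (m1A58), working with its partner Trmt6. The mark stabilises the fold of the tRNA and supports translation, and initiator methionine tRNA depends on it strongly in yeast. A naive T cell that meets antigen and costimulation grows, raises its output of ribosomes, tRNAs and lipids, and divides repeatedly within its first days. The readouts below are those of messenger RNA, not of tRNA or protein.

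A value is a gene's read count divided by 1 scaling factor per library, called a scaled read count. A gene is in the table when its unadjusted p was under 0.05, here "listed", and is "called" when its adjusted p in the authors' deposited table was under 0.05. Of 9940 genes behind that adjustment, 236 were called, or 2.37%. Higher levels in cKO were called for 83 of them (0.835%) and lower levels for 153 (1.54%). Among listed genes 437 were higher and 758 lower (373 and 729 of those behind the adjustment, or 3.75% and 7.33%), with a median log2 fold change of -0.23 over all of them, -0.31 over those lower and 0.39 over those higher. The remaining 93 listed genes, all with a mean under 100, were set aside from the adjustment and could not be called. Changes were mostly small: 169 of the 236 called genes differed by less than 1.5-fold and 26 by at least 2-fold. The cKO and WT libraries did not overlap in 1181 of the 1195 listed genes, among them all 236 called ones, so a lack of overlap does not set the called genes apart. Refitted from the recovered reads with DESeq2, the standard error of the log2 fold change of a called gene lay between 0.063 and 0.63 (median 0.11), and 200 genes (2.01%) were called, 195 of them among the 236. The choice of test matters here: edgeR's quasi-likelihood test called 5 genes or 0.0503% (Gapdh, Ckb, Trmt61a, Malat1 and the noncoding 2410006H16Rik) with 4 or 0.0402% on TMM factors, and limma called 0, with 1136 and 874 genes at an unadjusted p under 0.05. These values depend on the scaling. With size factors computed from the listed genes alone, which centres a set that is mostly lower, log2 fold changes shifted upward by a median of 0.19 and DESeq2 called 310 genes (3.12%), 288 higher and 22 lower. On that scale 61 listed genes changed sign, none of them called, so the directions of the gene lists described below are also given there. A list that kept its direction did not always keep its calls. With those factors DESeq2 called 0 members lower in the mitosis, tubulin and actin, chaperone, nuclear oxidative phosphorylation and mitochondrial ribosomal protein lists.

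**Figure D1:**
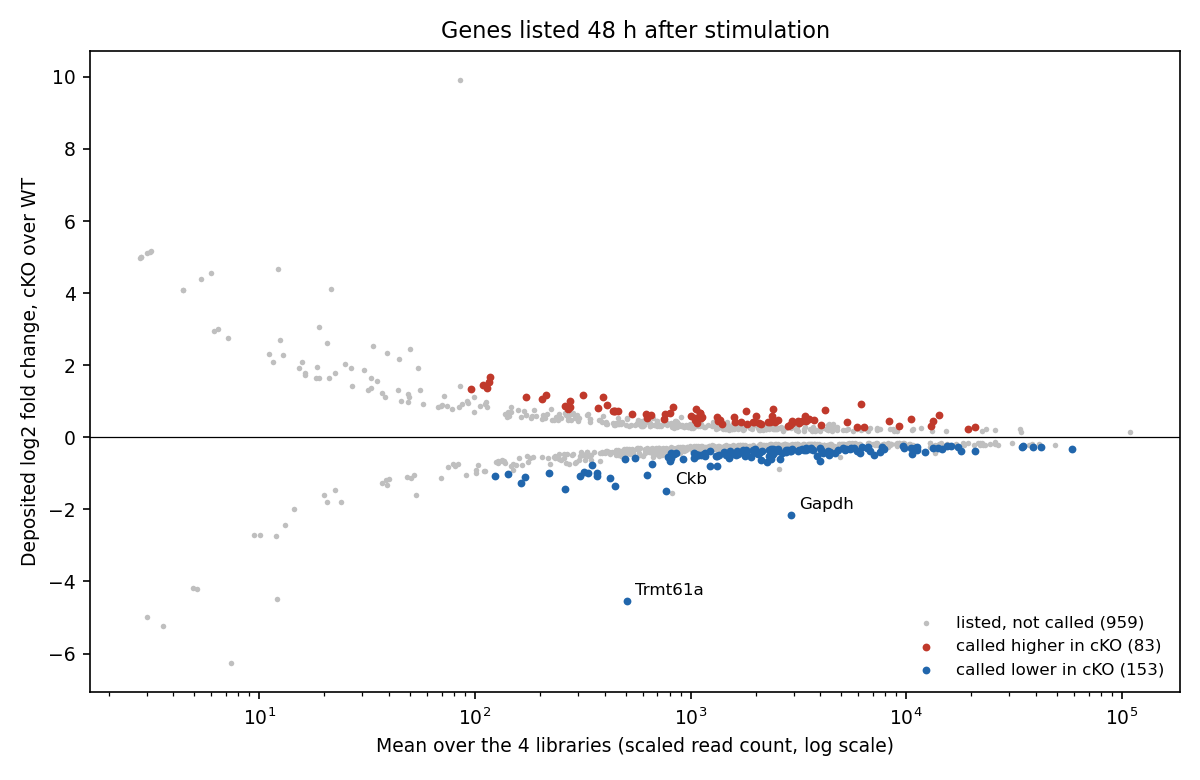
Deposited log2 fold change of cKO over WT (vertical axis) against the mean scaled read count of the 4 libraries (horizontal axis, log scale) for the 1195 listed genes. Red points are the 83 genes called higher, blue points the 153 called lower and grey points genes not called; Trmt61a, Gapdh and Ckb lie below the other called genes, most of which lie within 1 log2 unit of 0.

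Reads recovered over the listed genes lay between 3380554 and 4482346 per library, and the depth over all genes is unknown. The knockout libraries were not alike: cKO library 1 lay further from WT than cKO library 2 in 166 of the 236 called genes and in 778 of the 1195 listed ones. Called genes numbered 50 (0.503%) without cKO library 1, 12 (0.121%) without WT library 1 and 20 (0.201%) without WT library 2, when DESeq2 was run on the recovered reads. Without cKO library 2 the same test called 203 (2.04%). Of the markers set for CD4 T cells, Trac and Cd28 were listed and not called, and Cd3d, Cd3e, Cd3g, Cd4 and Lck were not listed, so their levels could not be checked. Marker lists of 9 other cell types had 0 called members and 4 listed ones (Tcrg-C2, Ighg2b, Ctsh and Bpifa2), from the lists for CD8, NK and gamma-delta T cells, plasma cells, myeloid cells and submandibular gland. These 4 were low, could not be called and were highest in cKO library 2, for example Ctsh with 28.8 and 108 in cKO against 30.5 and 28.5 in WT. The part of such cells in the results was not tested. The lists for B cells, neutrophils, red cells and platelets, pancreas and stroma had no listed member.

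Trmt61a messenger RNA, the target of the knockout, was present at 22.8 and 60.6 in cKO against 955 and 983 in WT (log2 fold change -4.54, adjusted p = 1.5e-09 in the authors' deposited table). Both knockout libraries were therefore far below both WT libraries, and cKO library 2 kept the higher residual level. The gene lies at chr12:111678105-111683902 on the plus strand in the table's coordinates. Trmt6, which encodes the partner subunit, and Myc, the transcription factor that drives growth of activated T cells, were not listed. Among 46 tRNA-modifying enzymes 2 were listed, Trmt61a and the methylthiotransferase Cdk5rap1, which had 372 and 320.1 in cKO against 239.9 and 238 in WT and was not called (adjusted p = 0.20 in the authors' deposited table). Ckb, the brain-type creatine kinase, is the neighbour of Trmt61a at chr12:111669361-111672338 on the minus strand. It fell to 404 and 413 in cKO against 1228 and 1045 in WT (log2 fold change -1.48, adjusted p = 1.6e-19 in the authors' deposited table), the third lowest fold change among called genes.

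The lowest adjusted p of the comparison belonged to Gapdh, the glycolytic glyceraldehyde-3-phosphate dehydrogenase. Its values were 1055 and 1069.5 in cKO against 5019 and 4492 in WT (log2 fold change -2.16, adjusted p = 2.9e-99 in the authors' deposited table), so each genotype was tight and the WT mean was 4.48 times the cKO mean. Gapdh has many processed pseudogenes whose reads can be split or shared by the authors' counting, so its level is uncertain. At 6 h Gapdh was listed higher in cKO and not called, with 736 and 395 in cKO against 151 and 385 in WT. The other called genes of glycolysis had smaller fold changes. Tpi1, triosephosphate isomerase, had 11779 and 14261 in cKO against 15923 and 16636 in WT (log2 fold change -0.32, adjusted p = 0.029 in the authors' deposited table). Pgam1, phosphoglycerate mutase, had 6345 and 6649 in cKO against 8706 and 8372 in WT (log2 fold change -0.39, adjusted p = 0.00018 in the authors' deposited table). Of the 24 genes of the glycolysis list 10 were listed, all lower, and these 3 were called. With size factors from the listed genes 9 of the 10 stayed lower. Eno1, Pkm and Ldha, which encode the abundant late enzymes, had log2 fold changes of -0.20, -0.22 and -0.18 in the authors' deposited table and were not called, and Ldha lay at 0.012 with size factors from the listed genes.

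Genes of cholesterol synthesis were lower in cKO. Of 21 members 19 were listed, all lower in cKO, and 14 were called, with a median log2 fold change of -0.49 over the listed members beside -0.31 over all genes listed lower. All 19 stayed lower with size factors from the listed genes, where DESeq2 called 5 of them. Cells make cholesterol from acetyl-CoA through mevalonate, and sterol-sensing SREBP2 raises nearly every enzyme of the route together when membrane cholesterol is short. Called members include Hmgcs1, which acts on the way to mevalonate, Mvd and Idi1, which make the isoprenoid units, Fdft1, Sqle and Lss, which build and close the sterol skeleton, and Cyp51, Msmo1, Nsdhl, Ebp and Dhcr7, which act on the sterol after closure. Acat2, the cytosolic thiolase that starts the route, was called as well.

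Levels of single enzymes show the size of the change. Mvd, mevalonate diphosphate decarboxylase, had 818 and 1113 in cKO against 1729 and 1652 in WT (log2 fold change -0.81, adjusted p = 7.9e-06 in the authors' deposited table). Acat2 had 783 and 1018 in cKO against 1637 and 1479 in WT (log2 fold change -0.79, adjusted p = 9.2e-06 in the authors' deposited table). Lss, lanosterol synthase, had 1566 and 1913 in cKO against 2923 and 2660.5 in WT (log2 fold change -0.68, adjusted p = 3.1e-06 in the authors' deposited table). In each of these 3 genes cKO library 1 was lower than cKO library 2, and both were below both WT libraries. Sqle, squalene epoxidase, had 2222 and 2566 in cKO against 3321 and 3010.0 in WT (log2 fold change -0.40, adjusted p = 0.009991 in the authors' deposited table). Fdps, which joins the isoprenoid units, had 109 and 102 in cKO against 190.2 and 153 in WT and was not called (adjusted p = 0.27 in the authors' deposited table). In 18 of the 19 listed members cKO library 1 was the lower of the knockout libraries.

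Genes around the sterol pathway followed in part. Of 18 genes of sterol uptake, sensing and export 5 were listed. Insig1, the ER protein that retains SREBP when sterols are plentiful and is itself an SREBP target, had 2070.1 and 2432 in cKO against 3012 and 3057 in WT (log2 fold change -0.43, adjusted p = 0.0047 in the authors' deposited table). Stard4, a sterol carrier, fell by 0.38 on the log2 scale in the authors' deposited table. Soat2, which esterifies cholesterol for storage, moved the other way with 821 and 695 in cKO against 556 and 413 in WT (log2 fold change 0.64, adjusted p = 0.018 in the authors' deposited table). Srebf2, which encodes SREBP2, had a log2 fold change of -0.15 in the authors' deposited table and 0.041 with size factors from the listed genes and was not called, and 3 of the 4 lower members stayed lower with size factors from the listed genes.

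Fatty acid synthesis showed fewer calls. Of 20 members 7 were listed, all lower also with size factors from the listed genes, and 2 were called. Fasn, fatty acid synthase, had 15757 and 15289 in cKO against 21268 and 19214 in WT (log2 fold change -0.38, adjusted p = 0.00034 in the authors' deposited table). Elovl6, which lengthens palmitate, had 620.2 and 859 in cKO against 1159.6 and 1066 in WT (log2 fold change -0.59, adjusted p = 0.014 in the authors' deposited table). Acly and Acaca, which supply acetyl-CoA and malonyl-CoA, were listed lower and not called. No gene of the 17 in the fatty acid oxidation list was listed. Run on the recovered reads, DESeq2 called 11 cholesterol members lower with all libraries, 7 without cKO library 1, 13 without cKO library 2, 1 without WT library 1 and 2 without WT library 2.

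Promoters of these genes were read from RefSeq (GRCm38.p6), over the 250 bases before the annotated start. Of the 19 listed cholesterol members 14 had an entry. The box CCAAT, the letters recognised by NF-Y, a factor that works beside SREBP and in cell-cycle promoters, was in 13 of the 14 on either strand and in 37.5% of all 27025 genes with a RefSeq promoter. Over all 16 matched cholesterol members, listed or not, CCAAT was in 15. The SREBP element TCACNCCAC was in 1 of the 14 listed members, Hmgcs1, and in 1.22% of all promoters. The stretches below run 5′ to 3′ on the gene's strand and end at the base before the start. Capitals mark the SREBP element in Hmgcs1 and the 2 CCAAT boxes in Mvd (ATTGG is the box on the other strand). Hmgcs1 also has 3 CCAAT boxes over the 250 bases, and those within its stretch are left in lower case.
Hmgcs1 (chr13:119690151-119690350, + strand): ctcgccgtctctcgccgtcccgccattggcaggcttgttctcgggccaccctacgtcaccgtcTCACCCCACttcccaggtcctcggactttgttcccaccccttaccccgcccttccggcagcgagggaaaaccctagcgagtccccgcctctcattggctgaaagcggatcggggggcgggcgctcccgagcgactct
Mvd (chr8:122443423-122443572, - strand): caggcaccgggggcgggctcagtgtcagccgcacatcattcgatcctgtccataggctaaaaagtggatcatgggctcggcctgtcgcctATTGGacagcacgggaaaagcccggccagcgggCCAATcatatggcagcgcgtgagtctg

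A match is a description of the letters and not evidence of binding. Counting boxes, at least 2 CCAAT boxes stood in 8 of the 14 cholesterol promoters and in 11.5% of all promoters. Over the whole comparison, at least 1 box stood in 48.5% of the 579 matched promoters of genes listed lower and in 33.4% of the 320 of genes listed higher, and for called genes in 50.9% of 114 lower and 44.4% of 63 higher. At least 2 boxes stood in 26.4% of those listed lower and 12.8% of those listed higher, and in 33.3% of those called lower and 11.1% of those called higher. Of lists described below that were mostly or wholly higher, the box stood in 5 of 9 matched promoters of listed p53 targets. It stood in 7 of 11 of the integrated stress response and in 1 of 5 of small nucleolar RNA hosts. Promoters of listed genes were also richer in G and C, with a median of 59.6% beside 52.4% for all promoters. These differences were not tested.

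Many genes of the G2 phase and mitosis were lower. Of 30 members 20 were listed, all lower also with size factors from the listed genes, and 12 were called. With those size factors DESeq2 called 0 of the 20. The median log2 fold change was -0.35 over the listed members, close to the -0.31 over all genes listed lower. The called members encode the cyclins of mitotic entry and their activator (Ccnb1, Ccnb2, Cdc25b), mitotic kinases (Plk1, Aurka), spindle and kinetochore proteins (Tpx2, Prc1, Birc5, Cenpa), the activator of the anaphase ligase (Cdc20) and proliferation markers (Top2a, Mki67). In bulk RNA, fewer cells in mitosis and less RNA of these genes per cell cannot be told apart.

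Ccnb2, cyclin B2, had 768 and 904 in cKO against 1208 and 1281 in WT (log2 fold change -0.57, adjusted p = 0.0023 in the authors' deposited table). Cdc25b, the phosphatase that activates cyclin B with CDK1, had 1013 and 1151 in cKO against 1609.8 and 1499 in WT (log2 fold change -0.52, adjusted p = 0.0023 in the authors' deposited table). Plk1, polo-like kinase 1, had 1386 and 1580.0 in cKO against 2245 and 1971 in WT (log2 fold change -0.51, adjusted p = 0.0021 in the authors' deposited table). These genes were lowest in cKO library 1, with cKO library 2 between it and WT. The abundant marker Top2a, DNA topoisomerase II alpha, had 15319.5 and 16173 in cKO against 18904 and 18803 in WT (log2 fold change -0.26, adjusted p = 0.021 in the authors' deposited table). Mki67, which encodes the Ki-67 antigen, had 11224 and 12809.5 in cKO against 14235 and 15104 in WT (log2 fold change -0.29, adjusted p = 0.036 in the authors' deposited table). DESeq2 on the recovered reads called 12 members with all libraries and 9 without cKO library 2. It called 0 without cKO library 1, WT library 1 or WT library 2, where 14, 8 and 13 members had an unadjusted p under 0.05.

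CCAAT boxes also stood in most of these promoters. Of 18 matched listed members 16 had a CCAAT box and 12 had at least 2, beside 37.5% and 11.5% of all promoters. Over all 26 matched members, listed or not, 21 had a box. The letters TTTGAA, the core of the cell-cycle element bound by the DREAM complex, were in 8 of the 18 and in 18.3% of all promoters. Ccnb2, with 3 boxes at about equal distances, and Aurka, with 2, show the arrangement.
Ccnb2 (chr9:70421555-70421704, - strand): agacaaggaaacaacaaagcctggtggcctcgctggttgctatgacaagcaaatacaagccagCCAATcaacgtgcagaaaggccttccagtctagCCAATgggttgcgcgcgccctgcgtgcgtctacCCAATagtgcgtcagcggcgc
Aurka (chr2:172370571-172370720, - strand): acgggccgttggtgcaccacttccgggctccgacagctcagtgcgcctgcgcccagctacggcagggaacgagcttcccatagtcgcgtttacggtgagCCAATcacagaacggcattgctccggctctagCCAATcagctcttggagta

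Earlier steps of the cycle gave fewer calls. Of 32 genes of the G1/S transition and replication 11 were listed lower and 3 were called, with a median of -0.25 beside -0.31 over all genes listed lower, and 9 of the 11 stayed lower with size factors from the listed genes. Tk1, thymidine kinase, had 2070.1 and 1936 in cKO against 3023 and 2557 in WT (log2 fold change -0.48, adjusted p = 0.0021 in the authors' deposited table). Mcm7, a subunit of the replicative helicase, had 6831 and 6964 in cKO against 8578 and 8554 in WT (log2 fold change -0.31, adjusted p = 0.0047 in the authors' deposited table). The helicase subunits Mcm2, Mcm3 and Mcm5 were listed with log2 fold changes of -0.22, -0.16 and -0.18 in the authors' deposited table and were not called, and Mcm3 and Mcm5 lay at 0.030 and 0.011 with size factors from the listed genes. Of the histone list 2 variant genes were called, H2afz with 8452 and 8967 in cKO against 10751 and 10848 in WT and H2afx with 3288 and 3049.6 in cKO against 3958 and 3951 in WT, at adjusted p of 0.0054 and 0.021 in the authors' deposited table.

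Some cytoskeletal genes were lower too. The tubulin and actin list of 22 genes also holds other cytoskeletal genes, such as Stmn1 and Tmsb10. Of the 22 genes 11 were listed, all lower (10 with size factors from the listed genes), and 6 were called, with a median of -0.35. Tubb4b, a beta-tubulin, had 5730.1 and 6098 in cKO against 7805 and 7654 in WT (log2 fold change -0.39, adjusted p = 0.00036 in the authors' deposited table). Stmn1, stathmin, which destabilises microtubules, had 4504 and 4653 in cKO against 5886 and 5778 in WT (log2 fold change -0.35, adjusted p = 0.0025 in the authors' deposited table). Tmsb10, thymosin beta 10, an actin-binding peptide, had 9853 and 11181 in cKO against 13461 and 14576 in WT (log2 fold change -0.41, adjusted p = 0.00042 in the authors' deposited table). Tuba1a and Tuba1b were also called lower, but these alpha-tubulins are nearly identical in their coding sequence and share reads, so their separate values are uncertain. Lmnb1, lamin B1, had 5426 and 5862 in cKO against 6894 and 6769 in WT (log2 fold change -0.28, adjusted p = 0.037 in the authors' deposited table).

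**Figure D2:**
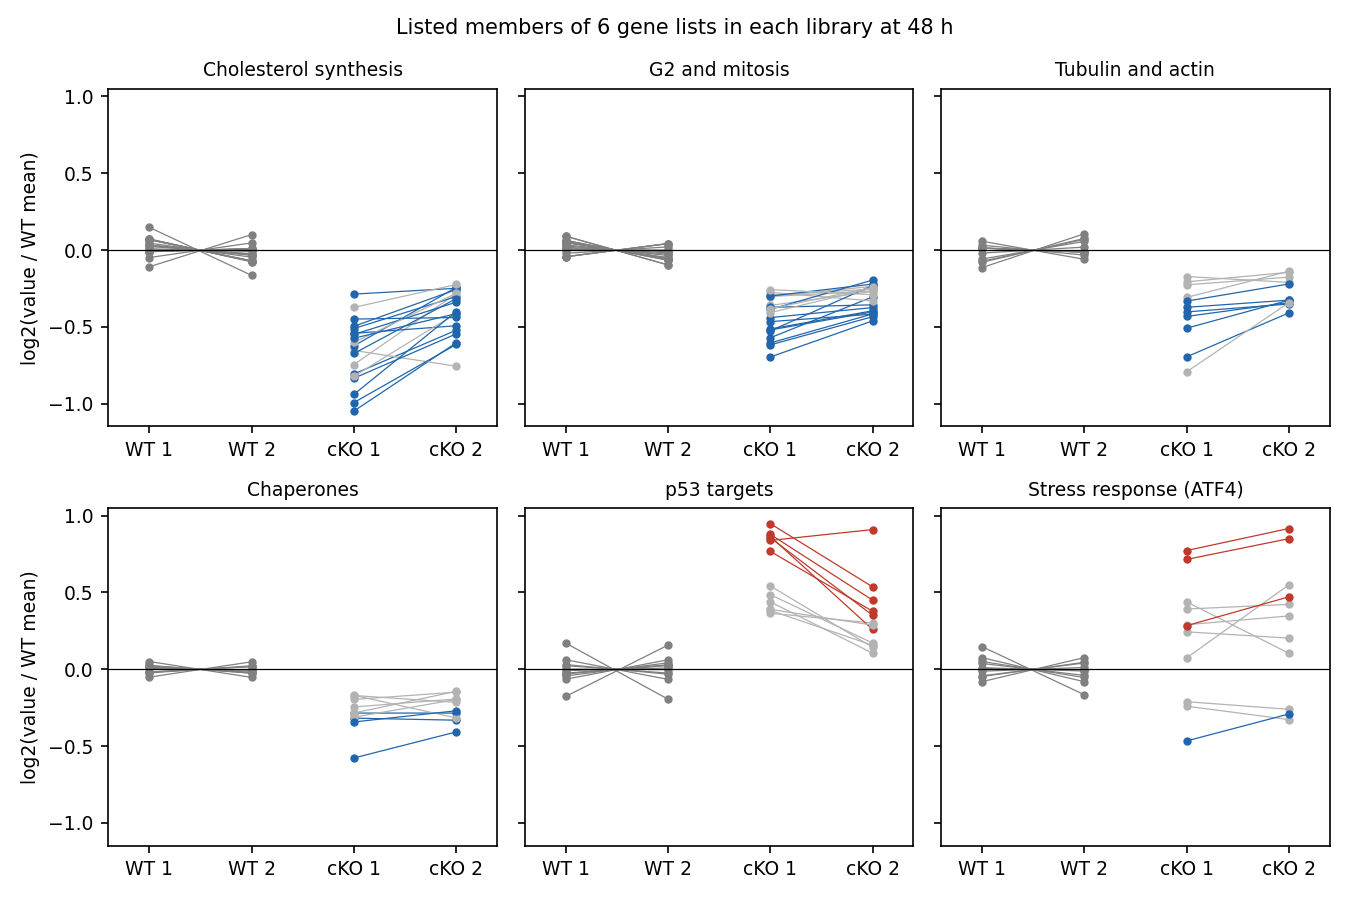
Each listed member of 6 gene lists in the 4 libraries at 48 h, as log2 of its value over the WT mean (vertical axis); a line joins the libraries of 1 genotype for the same gene. Blue and red mark members called lower and higher, grey those not called. WT libraries stay near 0, and cKO library 1 lies further out than cKO library 2 for most cholesterol, mitosis and p53 genes, while the called stress-response genes above 0 do not show that order.

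Several genes activated by p53 were higher. Of 22 members 12 were listed, all higher in cKO and all still higher with size factors from the listed genes, and 6 were called. With those size factors DESeq2 called all 12, on a scale where it called 310 genes (3.12%), 288 of them higher. On that scale it also called all 8 members of the T cell receptor signalling list that were listed higher. The same held for all 5 listed small nucleolar RNA hosts. The median log2 fold change of the listed p53 targets was 0.47, beside 0.39 for all genes listed higher. p53 is the transcription factor that halts division or triggers death after DNA damage and other stress. Cdkn1a, the cyclin-dependent kinase inhibitor p21, had 6041 and 4541 in cKO against 3037 and 3223 in WT (log2 fold change 0.76, adjusted p = 2.6e-07 in the authors' deposited table). Phlda3, an inhibitor of AKT, had 1458 and 958 in cKO against 785 and 815 in WT (log2 fold change 0.59, adjusted p = 0.027 in the authors' deposited table). Tnfrsf10b, a death receptor for TRAIL, had 929.9 and 655 in cKO against 510.4 and 516 in WT (log2 fold change 0.63, adjusted p = 0.023 in the authors' deposited table). In these 3 genes cKO library 1 was well above cKO library 2, as in 11 of the 12 listed members.

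Pmaip1, which encodes the BH3 protein Noxa, was the exception with 328 and 345 in cKO against 207 and 161 in WT (log2 fold change 0.87, adjusted p = 0.0104 in the authors' deposited table). Bbc3, which encodes the BH3 protein Puma, had 1129 and 839 in cKO against 587 and 641 in WT (log2 fold change 0.68, adjusted p = 0.0036 in the authors' deposited table). Trp53inp1 was called higher as well. Mdm2, Ccng1, Sesn2, Fas, Btg2 and Polk were listed higher and not called. DESeq2 on the recovered reads called 4 p53 targets with all libraries, 7 without cKO library 2, 1 without cKO library 1, 1 without WT library 1 and 2 without WT library 2. In the list of 22 core apoptosis genes outside this set 4 were listed and 0 called by the authors' adjusted p (Apaf1 and Cflar higher, Casp8 and Bcl2a1d lower).

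The p53 half-site was searched in the promoters of the 12 listed targets, of which 9 had an entry. It stood in 4 of the 9 and in 8.20% of all promoters. Cdkn1a has 2 matches before one of its annotated starts, shown in capitals.
Cdkn1a (chr17:29090779-29090978, + strand): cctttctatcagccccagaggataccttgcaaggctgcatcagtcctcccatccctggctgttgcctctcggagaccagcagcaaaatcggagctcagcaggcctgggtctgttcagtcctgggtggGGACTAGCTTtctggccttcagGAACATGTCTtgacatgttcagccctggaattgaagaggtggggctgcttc

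Genes of the integrated stress response, which cells raise through ATF4 when translation or amino acid supply falters, were listed in both directions. Of 20 members 11 were listed, 8 higher and 3 lower, and 4 were called. The 3 called higher are transcription factors. Ddit3, which encodes CHOP, had 1016 and 1123 in cKO against 611 and 579 in WT (log2 fold change 0.85, adjusted p = 8.6e-07 in the authors' deposited table). Atf5 had 1273 and 1398 in cKO against 859 and 692 in WT (log2 fold change 0.78, adjusted p = 1.1e-05 in the authors' deposited table). Cebpg, a partner of ATF4, had 1938 and 2207 in cKO against 1578 and 1605 in WT (log2 fold change 0.38, adjusted p = 0.027 in the authors' deposited table). In all 3 cKO library 2 was the higher of the knockout libraries, unlike most called genes. Psph, the last enzyme of serine synthesis, was called lower with 2577 and 2910.1 in cKO against 3754 and 3367 in WT (log2 fold change -0.38, adjusted p = 0.014 in the authors' deposited table). Phgdh, the first enzyme of that route, had 13354 and 12900.4 in cKO against 16009 and 14893 in WT and was not called (adjusted p = 0.072 in the authors' deposited table).

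Trib3 and Ppp1r15a, both feedback regulators of the response, were listed higher and not called, and Chac1, which degrades glutathione, was listed lower and not called. The direction of the 3 lower members and the 8 higher ones did not change with size factors from the listed genes. DESeq2 on the recovered reads called 2 members higher and 1 lower with all libraries, and 0 without WT library 2, where 5 members had an unadjusted p under 0.05. Of 19 amino acid transporters 2 were listed and 0 called by the authors' adjusted p: Slc7a3 higher and Slc7a5 lower, the last with log2 fold changes of -0.15 in the authors' deposited table, 0.010 under edgeR with TMM factors and 0.045 under DESeq2 with size factors from the listed genes. The letters TGATGNAAN, an element for C/EBP and ATF partners such as CHOP and ATF4, stood in the promoters of 2 of the 11 listed members, Atf3 and Chac1, and in 3.89% of all promoters.

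Some chaperone genes were lower. Of 24 heat shock and ER chaperones 10 were listed, all lower (9 with size factors from the listed genes), and 4 were called, with a median of -0.25. Hspa8, the constitutive HSC70 of the cytosol, had 52213 and 51735 in cKO against 66215 and 63938 in WT (log2 fold change -0.32, adjusted p = 0.00047 in the authors' deposited table). Sdf2l1, an ER stress-inducible factor, had 834 and 938 in cKO against 1201 and 1286 in WT (log2 fold change -0.49, adjusted p = 0.009991 in the authors' deposited table). Calr and Hsp90b1, calcium-binding chaperones of the ER, were called lower with log2 fold changes of -0.31 and -0.28 in the authors' deposited table. No chaperone of the list was listed higher. Over all 20 matched members, listed or not, 16 had a CCAAT box. All 9 matched listed members had one and 8 had at least 2, as in Sdf2l1.
Sdf2l1 (chr16:17132384-17132533, - strand): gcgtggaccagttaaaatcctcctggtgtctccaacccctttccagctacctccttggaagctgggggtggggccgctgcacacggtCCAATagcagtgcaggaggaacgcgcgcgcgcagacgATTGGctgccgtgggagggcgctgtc

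Calls in the protein-making machinery were few in number, and their shares of each list stand beside 2.37% over all genes behind the adjustment. Of 48 large-subunit and 33 small-subunit ribosomal protein genes 15 and 7 were listed, all lower. Called members numbered 1 and 2 (2.08% and 6.06% of the lists), Rpl36 and Rps2 among them. The medians of the listed members were -0.20 and -0.22, beside -0.31 over all genes listed lower, and with size factors from the listed genes 9 of 15 and 6 of 7 stayed lower. Rps2 had 39694 and 36376 in cKO against 46499 and 45676 in WT (log2 fold change -0.28, adjusted p = 0.013 in the authors' deposited table). Ribosomal protein genes have many processed pseudogenes, and their values are uncertain for that reason. Of 27 mitochondrial ribosomal protein genes 6 were listed, all lower on both scales, and 3 were called (11.1% of the list), with a median of -0.43. Mrpl12 had 1380.4 and 1394 in cKO against 1934 and 1904 in WT (log2 fold change -0.47, adjusted p = 0.0015 in the authors' deposited table). Mrpl28 had 900.1 and 899.8 in cKO against 1280.0 and 1249 in WT (log2 fold change -0.49, adjusted p = 0.0054 in the authors' deposited table), with both knockout libraries about equal.

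Of 35 translation factors 8 were listed, 4 higher and 4 lower, of which 2 stayed lower with size factors from the listed genes. Of the list 2 were called (5.71%). Eif3c, a core subunit of initiation factor 3, rose to 20897 and 20694 in cKO against 17755 and 17622 in WT (log2 fold change 0.23, adjusted p = 0.038 in the authors' deposited table). Eif5a, which relieves stalled ribosomes, fell to 31533 and 32119.6 in cKO against 38774 and 36801 in WT (log2 fold change -0.25, adjusted p = 0.025 in the authors' deposited table). Eef2, the most abundant listed gene of the list, had 113691 and 114838 in cKO against 104605 and 103817 in WT and was not called (adjusted p = 0.44 in the authors' deposited table). Of 22 genes in the tRNA synthetase list 2 were listed, Eprs higher and Aimp2, which is not itself a synthetase, lower. Of 32 ribosome biogenesis genes 4 were listed (Utp20, Wdr43 and Heatr1 higher, Nhp2 lower). Both lists had 0 called by the authors' adjusted p.

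Several host genes of small nucleolar RNAs rose. These genes carry in their introns the guide RNAs of ribosomal RNA modification, and their spliced transcripts are normally degraded when they are translated. Of 16 members 5 were listed, all higher also with size factors from the listed genes, and 4 were called. Gas5 had 6503 and 5742 in cKO against 4663 and 4421 in WT (log2 fold change 0.43, adjusted p = 0.00047 in the authors' deposited table). Zfas1 had 3641 and 3083 in cKO against 2678 and 2383 in WT (log2 fold change 0.41, adjusted p = 0.012 in the authors' deposited table). Snhg12 had 1312 and 1131 in cKO against 937 and 816 in WT (log2 fold change 0.48, adjusted p = 0.025 in the authors' deposited table). Snhg8 was the remaining call, while Rack1, the coding member, had a log2 fold change of 0.14 in the authors' deposited table and was not called.

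The nuclear long noncoding RNAs Malat1 and Neat1 rose as well. Malat1, which lies in nuclear speckles, had 16791 and 17709.5 in cKO against 11683 and 10724 in WT (log2 fold change 0.62, adjusted p = 7.9e-12 in the authors' deposited table). Neat1, the scaffold of paraspeckles, had 2430.4 and 2878 in cKO against 2006 and 1987 in WT (log2 fold change 0.41, adjusted p = 0.011 in the authors' deposited table). The splicing factors Srsf2, Srsf3, Srsf7 and Rbm3 in the same list were listed lower and not called, and Srsf7 and Rbm3 lay at 0.026 and 0.032 with size factors from the listed genes. Noncoding RNA genes made up 31 of the 437 genes listed higher and 4 of the 758 listed lower, and 8 of the 83 called higher and 2 of the 153 called lower. Their share of all genes behind the adjustment is unknown. Of the 35 listed, 12 were set aside from the adjustment and could not be called. Listed genes of any class with a mean under 100 were also mostly higher (67 of 96).

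Part of the oxidative phosphorylation list was lower. Of 34 nuclear-encoded members 13 were listed, all lower on both scales, and 4 were called, with a median of -0.34. Cox4i1, a subunit of cytochrome c oxidase, had 3326 and 3720.1 in cKO against 4615 and 4427 in WT (log2 fold change -0.36, adjusted p = 0.0082 in the authors' deposited table). Cox5a, of the same complex, Uqcrq of complex III and Atp5e of the ATP synthase were called lower too, with log2 fold changes of -0.36, -0.34 and -0.41 in the authors' deposited table. None of the 15 genes encoded by mitochondrial DNA was listed, and neither was any of the 25 autophagy and lysosome genes. Prdx1, a peroxiredoxin, and Tkt, the transketolase of the pentose phosphate pathway, were the only called members of their lists, with log2 fold changes of -0.33 and -0.28 in the authors' deposited table. Families of small subunits picked after their values were seen pointed the same way: 19 listed of 39 proteasome subunits (1 called), 11 listed of 23 Sm and LSm proteins of the spliceosome (2 called) and 9 listed of 14 nuclear ATP synthase genes (4 called) were all lower, and 16, 10 and 9 of them stayed lower with size factors from the listed genes.

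**Figure D3:**
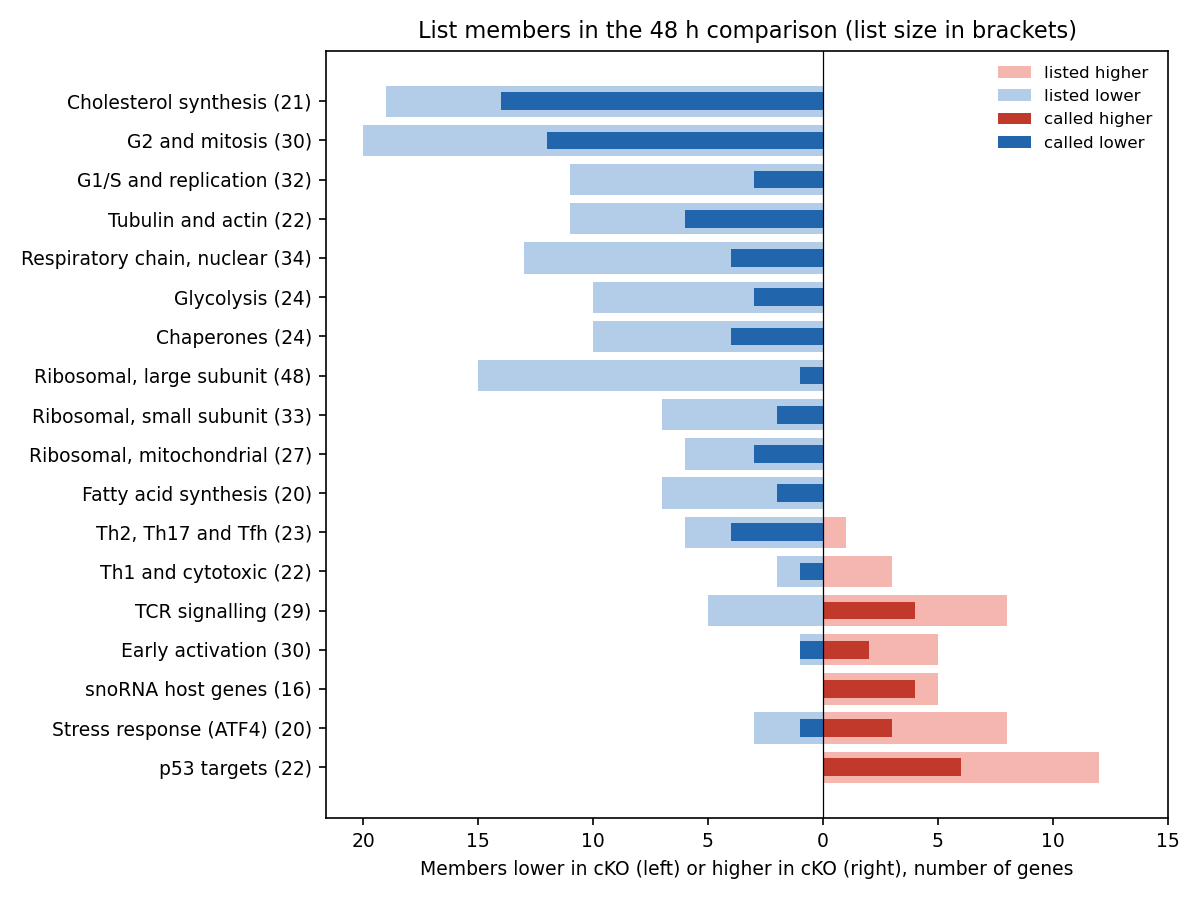
Members of 18 gene lists that were lower (left) or higher (right) in cKO at 48 h, in number of genes; pale bars are listed members, dark bars called members, and list sizes stand in brackets. Cholesterol synthesis (19 listed, 14 called) and mitosis (20 listed, 12 called) reach furthest to the left, and p53 targets (12 listed, 6 called) furthest to the right.

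Several cytokine genes of helper T cells were among the largest changes. Of 23 genes of the Th2, Th17 and follicular helper list 7 were listed, 6 lower (also with size factors from the listed genes) and Bcl6 higher. Of the list 4 were called, all lower, and 2 were set aside from the adjustment. Il10 and the Th17 cytokine Il17a were listed lower and not called, with log2 fold changes of -2.72 and -1.99 in the authors' deposited table. Il4, the cytokine that directs Th2 differentiation, had 186 and 345 in cKO against 582 and 577 in WT (log2 fold change -1.13, adjusted p = 0.00047 in the authors' deposited table). Il13, its partner in allergic responses, had 109 and 108 in cKO against 198 and 265 in WT (log2 fold change -1.09, adjusted p = 0.0088 in the authors' deposited table). Il3, a growth factor for mast cells and basophils, had 298 and 202 in cKO against 719.8 and 556 in WT (log2 fold change -1.35, adjusted p = 3.7e-07 in the authors' deposited table). The knockout libraries differed for Il4, where cKO library 2 was higher, and for Il3, where cKO library 1 was higher, but none reached WT. Icos, a costimulatory receptor, fell to 3705 and 3897 in cKO against 4935 and 5101 in WT (log2 fold change -0.40, adjusted p = 0.00052 in the authors' deposited table). Lif, a cytokine of the IL-6 family, had 5397 and 6323 in cKO against 8129 and 8378 in WT (log2 fold change -0.49, adjusted p = 3.3e-05 in the authors' deposited table).

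Other effector genes moved in both directions. Eomes, a T-box factor of cytotoxic cells, had 944 and 973 in cKO against 1481 and 1242 in WT (log2 fold change -0.51, adjusted p = 0.0082 in the authors' deposited table). Lta, which encodes lymphotoxin alpha, was called lower with a log2 fold change of -0.35 in the authors' deposited table. Ifi47, an interferon-induced GTPase, had 4896 and 5424 in cKO against 6457 and 6869 in WT (log2 fold change -0.37, adjusted p = 0.0034 in the authors' deposited table), and all 4 listed members of its list of 16 were lower (3 with size factors from the listed genes). The chemokine genes Ccl3 and Ccl4 were listed higher and not called. Lrrc32, which encodes GARP, the receptor that holds latent TGF-beta, fell to 312 and 509 in cKO against 764 and 924 in WT (log2 fold change -1.04, adjusted p = 0.00013 in the authors' deposited table). Tnfsf8, the CD30 ligand, rose to 8960.3 and 7137 in cKO against 3721 and 4776 in WT (log2 fold change 0.92, adjusted p = 0.009991 in the authors' deposited table).

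Genes downstream of the T cell receptor were listed in both directions, with every called member of the signalling list higher. Of 29 members of the signalling list 13 were listed, 8 higher and 5 lower on both scales, and 4 were called, all higher. Malt1, a protease that acts in the activation of NF-kappaB, had 3779 and 4121 in cKO against 2711 and 3081 in WT (log2 fold change 0.45, adjusted p = 0.0012 in the authors' deposited table). Lcp2, which encodes the adaptor SLP-76, had 14943 and 13883 in cKO against 11199 and 12177 in WT (log2 fold change 0.30, adjusted p = 0.012 in the authors' deposited table). Nfkb1 and Nfkb2, the precursors of NF-kappaB subunits, were called higher with log2 fold changes of 0.28 and 0.32 in the authors' deposited table. Egr1 and Egr2, early zinc-finger factors, rose as well. Egr2 had 2929.5 and 2724 in cKO against 2005 and 2234 in WT (log2 fold change 0.42, adjusted p = 0.0052 in the authors' deposited table). Jund, an AP-1 subunit, fell to 3911 and 3680.1 in cKO against 4776 and 5037 in WT (log2 fold change -0.37, adjusted p = 0.0029 in the authors' deposited table).

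Cd5, a receptor that dampens antigen signals, rose to 10647 and 8611 in cKO against 7362 and 6781 in WT (log2 fold change 0.45, adjusted p = 0.0020 in the authors' deposited table). Dapl1, a gene of naive and resting T cells, fell to 158 and 135 in cKO against 268 and 319 in WT (adjusted p = 0.0053 in the authors' deposited table). Cd53, an abundant tetraspanin of lymphocytes, rose to 14671 and 15950.0 in cKO against 10537 and 11956 in WT (log2 fold change 0.45, adjusted p = 0.00011 in the authors' deposited table). Ahnak, a scaffold protein that supports calcium entry in T cells, rose to 1892 and 1873 in cKO against 1246 and 1322 in WT (log2 fold change 0.55, adjusted p = 0.00012 in the authors' deposited table). Transcription factors named in the table's annotation made up 9 of the 83 genes called higher and 4 of the 153 called lower. Among listed genes they were 34 of the 437 higher and 26 of the 758 lower. Their share of all genes behind the adjustment is unknown.

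Further genes with a mean of at least 100 were called higher with large fold changes. The highest belonged to AC121151.1, a processed pseudogene whose counts are uncertain, with 147 and 209.8 in cKO against 61.1 and 49.6 in WT (log2 fold change 1.68 in the authors' deposited table). Rgs2, which switches off G proteins, had 553 and 526 in cKO against 242 and 255 in WT (log2 fold change 1.12, adjusted p = 9.0e-07 in the authors' deposited table). Anxa3, a calcium-dependent membrane-binding protein, had 423 and 455 in cKO against 199 and 191 in WT (log2 fold change 1.17, adjusted p = 4.6e-06 in the authors' deposited table). Lrrk2, a large kinase, had 336 and 256 in cKO against 138 and 125 in WT (log2 fold change 1.17, adjusted p = 0.00079 in the authors' deposited table). Within each genotype the Rgs2 and Anxa3 libraries lay close together. Slc4a11, a membrane transporter, had 188 and 139.5 in cKO against 64.6 and 61.3 in WT (log2 fold change 1.38, adjusted p = 0.0051 in the authors' deposited table). Eng, endoglin, a co-receptor for TGF-beta, had 305 and 169 in cKO against 117 and 100.3 in WT (log2 fold change 1.12, adjusted p = 0.022 in the authors' deposited table). Trim66 had 199 and 120.0 in cKO against 67.2 and 48.6 in WT (log2 fold change 1.46, adjusted p = 0.0081 in the authors' deposited table). In Eng and Trim66 the knockout libraries lay far apart, with cKO library 1 the higher. Casp4, an inflammatory caspase, had 355 and 353 in cKO against 192 and 205 in WT (log2 fold change 0.84, adjusted p = 0.0076 in the authors' deposited table). In the family of G protein signalling regulators, chosen after its values were seen, 4 of 21 were listed, all higher on both scales, and 3 were called.

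Among the largest decreases, Epas1, which encodes HIF-2alpha, had 113 and 172 in cKO against 406 and 358 in WT (log2 fold change -1.43, adjusted p = 5.5e-06 in the authors' deposited table). Efna5, an ephrin ligand, had 81.4 and 112 in cKO against 239 and 224 in WT (log2 fold change -1.26, adjusted p = 0.0018 in the authors' deposited table). Tnni1, a slow skeletal troponin, had 92.3 and 67.0 in cKO against 181 and 157 in WT (log2 fold change -1.08, adjusted p = 0.037 in the authors' deposited table). Ppih and Mfap1b were also called lower, both spliceosomal genes with close copies in the genome that leave their counts uncertain. Mfap1b had 242 and 203 in cKO against 328 and 567 in WT, where the WT libraries themselves lay far apart.

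A stretch of chromosome 3 held higher genes close together. Mbnl1, a splicing regulator at chr3:60472830-60629750, had 12704 and 11994 in cKO against 8217 and 9254 in WT (log2 fold change 0.50, adjusted p = 3.0e-06 in the authors' deposited table). Gm33707, a processed pseudogene at chr3:60769887-60770455, had 178 and 163 in cKO against 0 and 0 in WT, with no reads in either WT library. Gm38326, a noncoding RNA gene at chr3:60788361-60794730, had 29.8 and 17.3 in cKO against 1.75 and 0 in WT. The last 2 were set aside from the adjustment and could not be called. Both were also listed higher at 3 h and 6 h, and Mbnl1 at 0 h and 3 h. Mbnl1 was not called at 0 h or 3 h (adjusted p = 0.999 and 0.53 in the authors' deposited tables). At 3 h it had 12075 and 16841 in cKO against 11701 and 8233 in WT. Gm33707 was called at 3 h and at 6 h (adjusted p = 2.0e-10 and 1.2e-05 in the authors' deposited tables), and Gm38326 at neither.

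Direction followed the length and level of the gene. Listed genes that were higher had a median exonic length of 5010 bp, and those that were lower 2744.5 bp. Of listed genes under 1500 bp 83.0% were lower, of those from 1500 bp 75.7%, of those from 3000 bp 59.9% and of those from 6000 bp 40.0%. The same order held for called genes, of which 87.2%, 75.4%, 63.2% and 36.7% were lower. It also held inside each of 3 classes of level: with a mean of at least 2000 the shares were 96.2%, 90.2%, 73.7% and 47.7%, and with a mean under 500 they were 68.0%, 49.4%, 29.6% and 25.6%. Protein-coding genes in none of the lists gave 97.2%, 79.6%, 56.7% and 37.0% over the same length classes. The short and abundant genes of the ribosome, proteasome, respiratory chain and spliceosome fall on the side that was mostly lower, so their direction cannot be told apart from that of short genes in general. The same limit holds for long genes that were higher, among them Mbnl1 (18717 bp), Ahnak (18543 bp) and Malat1 (6983 bp). Cholesterol genes had mixed lengths, with 1859 bp for Mvd, 4594 bp for Hmgcs1 and 10787 bp for Lss.

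**Figure D4:**
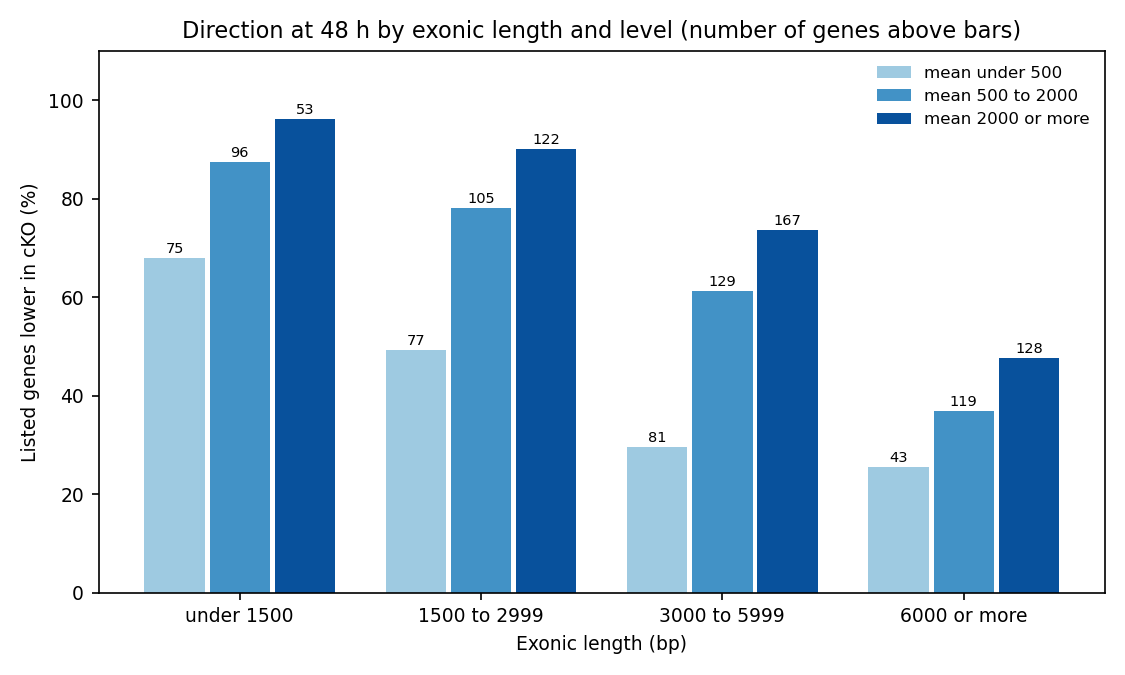
Percentage of listed genes that were lower in cKO at 48 h (vertical axis) by exonic length in bp (horizontal axis), for 3 classes of mean scaled read count; the number above a bar is its number of genes. The percentage falls with length in each class, from 96.2% to 47.7% in the class of 2000 or more.

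Most genes of the 48 h comparison were not listed at the earlier times. Of its 1195 genes 46 were also listed in resting cells (3.85% of the 48 h table and 11.98% of the 384 genes at 0 h), 123 at 3 h (10.3% and 11.3% of 1091) and 61 at 6 h (5.10% and 8.24% of 740). The direction was the same for 25 of the 46, 75 of the 123 and 25 of the 61. Tables were scaled separately for each time, so values are compared only within a time. Trmt61a alone was called at all 4 times, and Ahnak was listed higher at all 4.

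At 3 h 253 genes were called (1.64% of those adjusted), and called genes shared with 48 h numbered 13, of which 7 kept their direction and 6 did not. Rgs1, an inhibitor of chemokine receptor signalling, was higher at both times, with 2295 and 2167 in cKO against 1231 and 1302 in WT at 3 h and 3123 and 2783 in cKO against 1995 and 2279 in WT at 48 h. Pmaip1 was higher at both times, with 705 and 515 in cKO against 207 and 294 in WT at 3 h. Lta was lower at both, with 824 and 1026 in cKO against 1787 and 2227 in WT at 3 h. Cd53 and Osbpl9 were higher at both, as was Gm8995, a gene model whose reads may come from a close copy. Bbc3 and Ulbp1, a ligand of the NKG2D receptor, were lower at 3 h and higher at 48 h. Il13, Eomes, Elovl6 and Ifi47 were higher at 3 h and lower at 48 h. For Il13 the values at 3 h were 72.4 and 63.1 in cKO against 6.77 and 17.9 in WT, so the early difference rests on low counts. Elovl6 had 877 and 572 in cKO against 190.5 and 271 in WT at 3 h. At 6 h only Trmt61a and Ifi47 were called among the genes called at 48 h, Ifi47 with 6213 and 3519 in cKO against 1636 and 686 in WT. Rgs1, Osbpl9, Gm8995 and Ulbp1 were singled out after their values were seen.

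**Figure D5:**
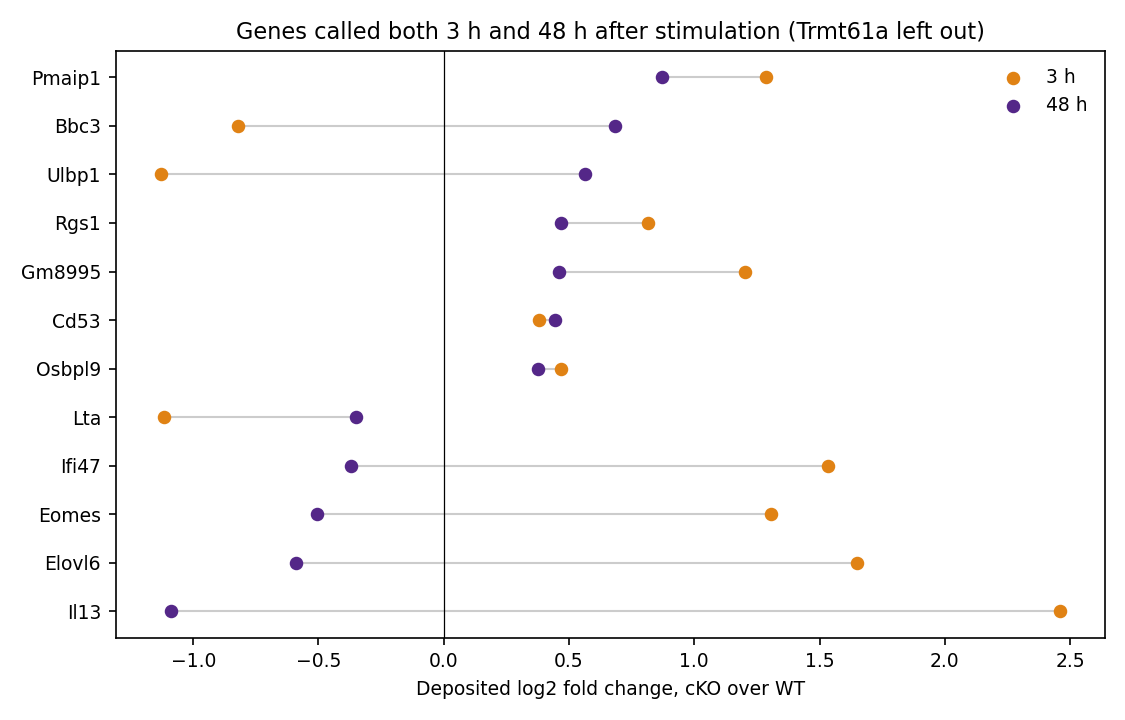
Deposited log2 fold change of cKO over WT at 3 h (orange) and 48 h (purple) for the 12 genes other than Trmt61a called at both times; a grey line joins the values of a gene. Bbc3 and Ulbp1 cross from below 0 at 3 h to above 0 at 48 h, and Ifi47, Eomes, Elovl6 and Il13 cross the other way.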

How the data were processed

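Per the labels' protocols, total RNA of stimulated CD4 T cells was made into directional libraries. The submitters' processing notes give mm10 as the genome and, with no assay beside them, the tools HISAT2 2.0.5, Bowtie2 2.4.1, featureCounts 1.5.0-p3 and Trim Galore 0.6.6, and whether counting used strand is not given in the sources used here. The authors deposited, for each listed gene, a signal per library (read counts divided by 1 factor per library), the log2 fold change between genotypes, and its p-value before and after adjustment, from an unnamed test. At 48 h 100% of values above 0 were whole multiples of 1 step per library (tolerance 0.01), which gave back the reads; a separate check of file units accepted that reading for the 6 h table only.

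Because the table holds genes with an unadjusted p under 0.05, the authors' adjusted p under 0.05 was the call, and the 9940 genes behind it were recovered from the p-values. Means, SDs, list counts and promoter matches were computed with Python 3.11.15 and pandas 2.3.3. Alternatives were DESeq2 1.42.0, edgeR 4.0.16 (quasi-likelihood) and limma 3.58.1 on log2(value + 1) or log2(value + 5) in R 4.3.3, with adjustment over 9940 genes, other size factors, a replicate block and leaving out each library; the fits were tested on simulated data. Those fits see listed genes only, so their estimates of spread rest on selected genes.

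The gene lists, the comparison and the naming rule were chosen with earlier results of these data known. The rule named Trmt61a, Trmt6 and Myc, the 12 highest and 12 lowest fold changes with a mean of at least 100, the 8 highest levels in each direction, up to 5 called members per list (3 where none was called) and up to 12 genes listed in the same direction at 2 other times. Further members of a list are named to account for it, and these were chosen after their values were seen. Promoters came from RefSeq (GRCm38.p6) and were matched by symbol: 899 of the 1195 listed genes had one. Some genes are not reported here.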

Additional observations from a re-analysis of the deposited data

Results flagged for a closer look

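In 6 genes called at 48 h, every knockout library lay on one side of WT at 48 h and on the opposite side at an earlier time at which the gene was also called. The difference between times was not tested, because each time was scaled on its own. In the authors' deposited tables Bbc3 had a log2 fold change of 0.68 at 48 h and -0.82 at 3 h. Ulbp1 had 0.56 at 48 h and -1.13 at 3 h in the authors' deposited tables, and it was higher mainly in cKO library 1 at 48 h, at 1883 and 1269 in cKO against 1105 and 1026 in WT. Eomes had -0.51 at 48 h and 1.31 at 3 h in the authors' deposited tables, with 354 and 359.6 in cKO against 174 and 115 in WT at 3 h. Il13 had -1.09 at 48 h and 2.46 at 3 h in the authors' deposited tables. Elovl6 had -0.59 at 48 h and 1.65 at 3 h in the authors' deposited tables. Ifi47 had -0.37 at 48 h, 1.54 at 3 h and 2.07 at 6 h in the authors' deposited tables. No group had enough libraries to look for single libraries that stand apart.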

How the results depend on the processing

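The 236 called genes (83 higher, 153 lower) rested on the test, on both WT libraries and on cKO library 1. From the recovered reads, DESeq2 called 200 (68 and 132), and with size factors from the listed genes 310 (288 and 22). edgeR called 5 (2 and 3), and 4 with TMM factors (2 and 2), with 1136 genes at an unadjusted p under 0.05. limma on log2(value + 1) and on log2(value + 5) called 0, with 874 and 891 at an unadjusted p under 0.05. Leaving out 1 library gave between 12 and 203 calls, with 50 without cKO library 1, 12 without WT library 1 and 20 without WT library 2, and 6 to 66 higher and 6 to 137 lower; the lone library of a group was assumed to vary like the other group. An adjusted p under 0.01 left 135 (50 and 85), under 0.1 gave 349 (117 and 232), and adjusting over the listed genes alone gave 1102 (373 and 729), which follows from their selection. With the replicate number as a block, DESeq2 called 91 (28 and 63), 87 of them among the 236, and limma called 0, with 768 at an unadjusted p under 0.05. Deviations of same-numbered libraries correlated at 0.13 across genes over only 2 pairs, so the numbers do not establish a pairing. Of genes listed at another time in the same direction, 25, 75 and 25 at 0 h, 3 h and 6 h, those called at both were 1, 7 and 1. A minimum mean of 10 or 100 changed the calls by at most 1. No called gene changed sign under any of these fits. With DESeq2 and size factors from the listed genes, a setting added for single genes after seeing the data, 61 of the 1195 listed genes did, among them Slc7a5 (0.045), Ldha (0.012), Mcm3, Mcm5, Rbm3, Srsf7 and Srebf2 of those named. With edgeR and TMM factors 6 did, among them Slc7a5 (0.010) and Srebf2. Ctsh ranged from -0.037 without cKO library 2 to 1.87 without cKO library 1.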

Other observations

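Some called genes fall in families that were picked after their values were seen. High-mobility-group proteins, which bend DNA and bind nucleosomes, had 3 of 8 members listed, all lower also with size factors from the listed genes. Hmgb2 had 8901 and 8837 in cKO against 12176 and 12508 in WT (log2 fold change -0.48, adjusted p = 1.9e-07 in the authors' deposited table). Hmgb3 was the other called member, and Hmgb1, which has many processed copies, was not called. Protein tyrosine phosphatases had 5 of 36 members listed (13.9%), near the 11.1% of all genes behind the adjustment. Of these 5, 4 were higher and Ptpn1 lower on both scales, and 3 were called (8.33% of the family, beside 2.37%). Ptpn5 had 526 and 566 in cKO against 379 and 278 in WT (log2 fold change 0.73, adjusted p = 0.012 in the authors' deposited table). Ptprj, a receptor phosphatase, had 324 and 357 in cKO against 178 and 217 in WT (log2 fold change 0.79, adjusted p = 0.023 in the authors' deposited table). Ptpn14 had 149 and 125 in cKO against 51.5 and 57.0 in WT (log2 fold change 1.34, adjusted p = 0.012 in the authors' deposited table). Ptprc, which encodes CD45, had 28147 and 27143 in cKO against 22745 and 25072 in WT and was not called. Rgs16, an inhibitor of G protein signalling, had 4341 and 3777 in cKO against 2522 and 2871 in WT (log2 fold change 0.59, adjusted p = 8.9e-06 in the authors' deposited table).

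Chromatin and zinc-finger regulators called higher also included Kdm5b, a histone H3 demethylase, with 2221 and 2305 in cKO against 1679.6 and 1703 in WT (log2 fold change 0.42, adjusted p = 0.0037 in the authors' deposited table). Klf6 had 3549.8 and 3681 in cKO against 2611 and 2724 in WT (log2 fold change 0.44, adjusted p = 0.00034 in the authors' deposited table). Genes of antigen presentation had 5 of 18 members listed, all lower (4 with size factors from the listed genes) and 0 called, among them the immunoproteasome gene Psmb8 with 5038 and 6047 in cKO against 6649 and 6815 in WT. Lgals1, galectin 1, had 1468 and 2154 in cKO against 3422 and 3186 in WT and was not called (adjusted p = 0.064 in the authors' deposited table). Here cKO library 1 had less than cKO library 2, and both had less than either WT library. Kinesins had 3 of 38 members listed (7.89%), below the 11.1% of all genes behind the adjustment. All 3 were lower on both scales and not called.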
